A study of Mus musculus with 12 samples.

Results

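Forkhead (Fox) transcription factor genes were examined for Meis1 and Hoxb13 peaks in mouse ventricle. Members were the genes whose symbol is Fox, a letter and digits, other than Foxm1, Foxo1 and Foxo3. Of 21887 protein-coding genes 40 that met this rule are described, and 26 of them had a peak of at least 1 factor. All 52 of their Meis1 peaks and all 45 of their Hoxb13 peaks carried a gene name beginning "forkhead box" in the lists, out of 30534 Meis1 peaks and 22284 Hoxb13 peaks in all. The data came from chromatin immunoprecipitation sequencing of ventricle tissue taken at postnatal day 15 from mice of the outbred CD-1 strain. No genotype or treatment other than the antibody is named in the labels. The 12 libraries form 4 groups of 3: precipitates with an anti-Meis1 antibody, precipitates with an anti-Hoxb13 antibody, and an input without antibody for each. The 3 libraries of a group are from separate hearts, per the labels. Titles and descriptions number the Hoxb13 samples differently, so it is not clear whether the Meis1 and Hoxb13 libraries share hearts. The values are 1 peak list per factor made over 3 libraries, so no value has a spread between hearts, no test between libraries was possible and read depth was unknown. The chromatin was from whole ventricle, so a peak cannot be given to a cell type.

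Forkhead proteins share a winged-helix DNA-binding domain. Foxc and Foxf proteins act in cardiac mesenchyme and vessels, and Foxp1 and Foxp4 are regulators of heart development. Foxk proteins recruit Sin3 corepressors, Foxj1 drives the formation of motile cilia, and many other members specify endoderm, neural tissue, thyroid or lens. Meis1 is a homeobox factor of the TALE class that restrains cardiomyocyte division after birth, and Hoxb13 is a posterior Hox protein that can act with it. A peak was assigned by the authors to the gene with the nearest transcription start site. The assignment does not show that the gene is a target.

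The forkhead peak ranked highest within its own list was a Hoxb13 peak on the start site of Foxj3, a regulator of Mef2c in skeletal muscle. It lay at chr4:119539424-119539789 (mm10), had strength 176 and ranked 64 of the 22284 Hoxb13 peaks. Strength is a value per peak from the authors' lists, whose column carries no descriptive name and is read here as the signal value of the narrowPeak format. It is compared only within a list. Among the 8980 Hoxb13 peaks of the authors' promoter class, which reached at most 999 bp from a start site, it ranked 19. A weaker Hoxb13 peak of strength 23.3 overlapped it, at chr4:119539692-119540087, and no Meis1 peak was assigned to Foxj3. The nearest other gene body, that of Frg2f1, lay 0.655 kb from the stronger peak. Most peaks have a fixed width, 284 bp for 95% of Meis1 peaks and 396 bp for 98.8% of Hoxb13 peaks, so a width says little about a site.

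A RefSeq promoter window of 250 bases before to 50 after a start (build GRCm38.p6, the same primary assembly as mm10) held a Hoxb13 summit in 3 forkhead genes. They are Foxj3 (plus strand, chr4:119539411-119539710), Foxk2 (plus strand, chr11:121259737-121260036) and Foxp4 (minus strand, chr17:47924583-47924882). Windows were at hand for 26 of the 40 members, and for 7 of the 11 with a Hoxb13 promoter peak. The count of 3 can therefore miss other genes. The 3 windows are printed to show the sequence on which these promoter peaks are centred, 5′ to 3′ on the strand of the gene. Capitals mark the bases within 10 of the Hoxb13 summit.
Foxj3: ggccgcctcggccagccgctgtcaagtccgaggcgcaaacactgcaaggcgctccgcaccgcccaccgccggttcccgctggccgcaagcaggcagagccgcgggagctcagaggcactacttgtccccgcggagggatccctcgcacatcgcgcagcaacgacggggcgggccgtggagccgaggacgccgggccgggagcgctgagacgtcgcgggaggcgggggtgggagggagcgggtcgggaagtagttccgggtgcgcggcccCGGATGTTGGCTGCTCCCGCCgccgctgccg
Foxk2: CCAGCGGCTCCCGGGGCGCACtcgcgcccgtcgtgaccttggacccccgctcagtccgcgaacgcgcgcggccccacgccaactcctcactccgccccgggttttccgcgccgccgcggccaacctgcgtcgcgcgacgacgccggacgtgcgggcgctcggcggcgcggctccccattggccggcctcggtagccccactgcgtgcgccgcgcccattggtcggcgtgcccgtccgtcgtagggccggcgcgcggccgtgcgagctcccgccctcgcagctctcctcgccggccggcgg
Foxp4: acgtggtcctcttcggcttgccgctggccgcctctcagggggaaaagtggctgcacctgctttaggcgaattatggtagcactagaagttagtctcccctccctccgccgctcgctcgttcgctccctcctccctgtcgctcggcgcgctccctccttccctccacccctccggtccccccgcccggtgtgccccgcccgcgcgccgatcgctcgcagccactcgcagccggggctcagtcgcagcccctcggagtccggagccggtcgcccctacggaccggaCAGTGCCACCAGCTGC

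The summit is base 280 of the Foxj3 window, base 11 of the Foxk2 window and base 295 of the Foxp4 window, each window being 300 bases long. All 3 sequences were rich in G and C, at 75.0% for Foxj3, 79.3% for Foxk2 and 70.3% for Foxp4, with 42, 59 and 33 CG dinucleotides. The median over the 31 windows of 26 forkhead genes in the table was 62.7%, against 52.7% over all 32851 windows. Forkhead windows of genes with a Hoxb13 promoter peak (9 windows) had a median of 63.0% G and C, and the other 22 windows one of 62.5%. That split is by gene, and only the windows of Foxj3, Foxk2 and Foxp4 overlapped a Hoxb13 peak. The medians therefore do not compare sequence with and without a peak. Motifs were searched on both strands in the windows. The Meis1 motif TGACAG occurred in 7 of 31 forkhead windows and in 19.2% of all windows, the Hoxb13 motif CAATAAA in 1 of 31 and 4.6%, and the Hoxb13 motif TCGTAAA in 0 of 31 and 0.597%. The forkhead motif GTAAACA occurred in 1 of 31 and in 3.65%. In the 3 printed windows the only match was a TGACAG on the minus strand at bases 19 to 24 of Foxj3, 258 bases from the Hoxb13 summit. The windows held 287 bases of the stronger Foxj3 peak, 208 of the Foxk2 peak and 203 of the Foxp4 peak. The rest of each peak was not searched. No Meis1 peak overlapped a forkhead window, so the TGACAG matches are not matches in Meis1 peaks.

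Hoxb13 had promoter peaks at 11 of the 40 genes (27.5%), against 30.7% of all protein-coding genes, so the count was near the background. These genes were Foxc2, Foxd1, Foxe3, Foxj1, Foxj3, Foxk2, Foxn2, Foxn3, Foxo6, Foxp1 and Foxp4, with 14 peaks. After Foxj3 the strongest was that of Foxo6, a Foxo member of brain and liver (strength 48.4, rank 881, 0.253 kb upstream, chr4:120287514-120287909). Foxd1, a marker of renal stroma, followed with a peak of strength 37.1 and rank 2084 at 0.532 kb downstream of its start. The peak on the start of Foxp4 had strength 35.2 and rank 2461, and a second Foxp4 peak 0.800 kb upstream had strength 22.4. Those of Foxc2 (strength 22.4), Foxn3 (22.1), Foxn2 (21.2), Foxp1 (20.0 and 19.4), Foxk2 (19.9), Foxj1 (18.3) and Foxe3 (17.8) were of middle to low rank, from rank 9727 for Foxc2 (43.7% of the ranks) to rank 22170 for Foxe3 (99.5%). The strength of 17.8 at Foxe3, a lens regulator, equals to 3 digits the lowest strength in the whole list.

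Meis1 had a promoter peak at 1 of 40 genes (2.5%), against 8.16% of all protein-coding genes. That gene was Foxn3, a transcriptional repressor, and the peak also touches the predicted gene Gm51999 inside it. Its promoter peak at chr12:99391973-99392256 had strength 33.4, rank 4531 of 30534, and lay 0.816 kb downstream of an internal start. The Hoxb13 promoter peak of Foxn3 lay beside it, at chr12:99392359-99392754, with 102 bases between the peaks and 442 bases between the summits. That Hoxb13 peak touches Gm51999 as well. These Meis1 and Hoxb13 summits were 171.55 and 171.11 kb inside the outermost start of the gene. Within intron 2 of Foxn3 there was a stronger Meis1 peak of strength 65.0 (rank 1685, 6.43 kb downstream of the same internal start), with others of 27.2 and 18.6. The fifth, of strength 19.7, was in intron 1.

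**Figure D1:**
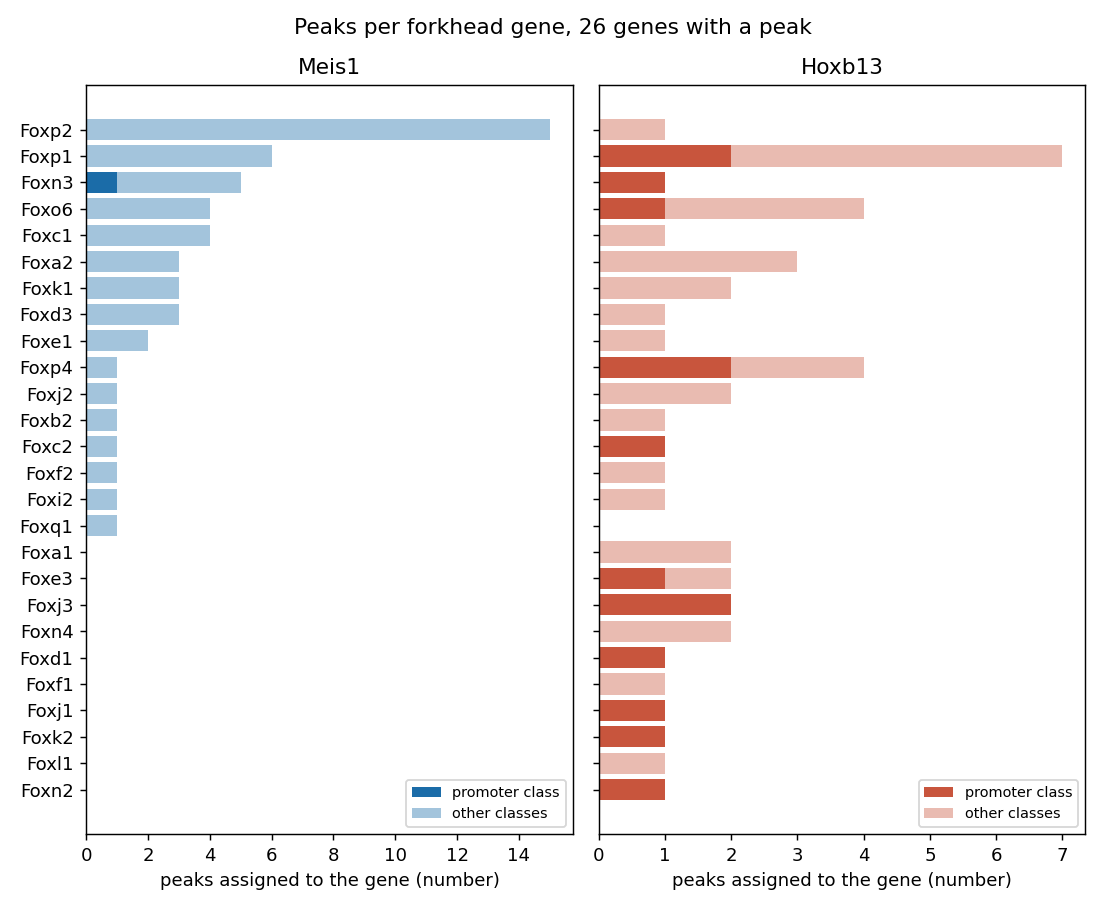
Number of peaks assigned to each of the 26 forkhead genes with a peak, Meis1 left and Hoxb13 right, with dark bars for the promoter class and pale bars for all other classes (the axes differ between panels). Meis1 peaks are most numerous at Foxp2 (15) with a single promoter peak at Foxn3, while Hoxb13 peaks number at most 7 per gene, at Foxp1, and include 14 promoter peaks.

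Counting peaks at any distance, 16 of 40 forkhead genes had a Meis1 peak (40%), against 38.2% of all protein-coding genes. Hoxb13 peaks were assigned to 25 of 40 (62.5%), against 44.4%. A peak of each factor was assigned to 15 genes (37.5%, against 23.9%), Hoxb13 alone to 10, Meis1 alone to 1 and neither to 14. The gene with Meis1 alone was Foxq1, an epithelial regulator, with a peak of strength 29.9 at 50.4 kb upstream. The 14 genes without a peak were Foxa3, Foxb1, Foxd2, Foxd4, Foxh1, Foxi1, Foxi3, Foxl2, Foxn1, Foxo4, Foxp3, Foxr1, Foxr2 and Foxs1. Among them are Foxp3, the regulator of regulatory T cells, Foxn1, the thymic epithelial regulator, and Foxh1, the Smad partner in Nodal signalling.

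The number of peaks assigned to a gene differed with the width of its locus, taken as the gene itself with 0.5 of the distance to the next protein-coding gene on either side. Over all genes, the widest of 10 width classes averaged 5.74 Meis1 and 1.91 Hoxb13 peaks per gene, and the narrowest 0.161 and 0.610. The median locus was 88.5 kb for forkhead genes, against 46.6 kb for all. Among the 25 forkhead genes with a locus above 46.6 kb, 13 had a Meis1 peak (52%), against 54.1% of all genes with such loci. Of the other 15 genes 3 had one (20.0%), against 22.3%. For Hoxb13 the counts were 19 of 25 (76%), against 51.7%, and 6 of 15 (40%), against 37%. Per 100 kb of locus, forkhead genes had 0.859 Meis1 peaks, against 0.900 for all genes, and 0.744 Hoxb13 peaks, against 0.718. These values divide the peaks assigned to a gene by the width of its locus, and an assigned peak can lie outside that locus. The members with the highest values for Meis1 were Foxc2 (9.09 per 100 kb, from 1 peak), Foxe1 (7.88, from 2) and Foxc1 (4.16, from 4). For Hoxb13 they were Foxc2 (9.09, from 1 peak), Foxe3 (7.50, from 2) and Foxn4 (6.81, from 2). The Meis1 peaks of Foxc1 and Foxe1 lay inside the bodies of Gmds and Gm12447, and those of Hoxb13 at Foxn4 inside or nearer to Acacb, so none of them was in the locus by which it is divided. Within 10 kb of a start site 15 forkhead genes had a Hoxb13 peak, where the share of all genes was 35.8%. The Meis1 shares by locus class and the promoter share of Hoxb13 thus differed little from the background, and the Hoxb13 share in wide loci was higher. None of these differences was tested.

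**Figure D2:**
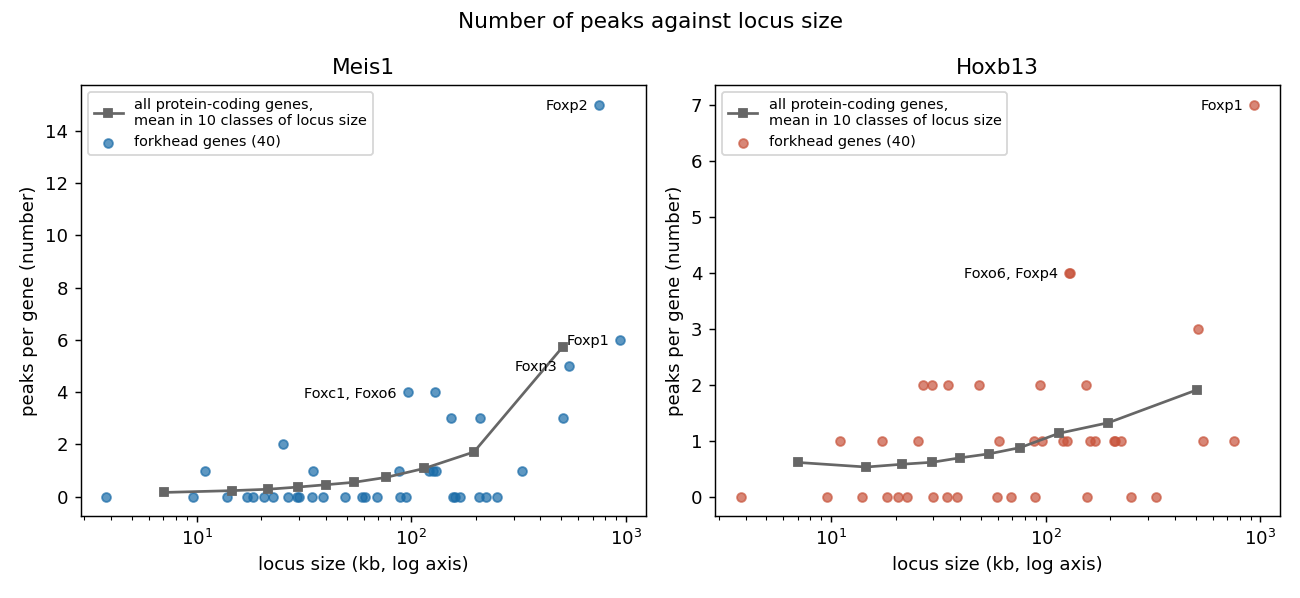
Peaks per gene against locus size in kb on a log axis, Meis1 left and Hoxb13 right, with points for the 40 forkhead genes and a grey line for the mean over all protein-coding genes in 10 classes of locus size. The all-gene mean reaches 5.74 Meis1 and 1.91 Hoxb13 peaks per gene in the widest class. The line ends at a locus of 509 kb, the median of that class. Foxp2 (15), with a locus of 753 kb, lies beyond that end and above its last Meis1 value. Foxp1 (7) has the highest Hoxb13 count.

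Foxp2, the speech-linked regulator of neural circuits, had 15 of the 52 Meis1 peaks, a number reached by 212 protein-coding genes (0.969%). Its locus spanned 753 kb, so its density was 1.99 Meis1 peaks per 100 kb, against 0.900 for all genes. Of these peaks 14 were in its introns and 1 was 72.3 kb upstream. Their strength ran from 15.8 to 19.4 with a median of 16.6, none was in the strongest 10% of the list, and 12 were in its weaker 50%. Hoxb13 had 1 peak at Foxp2, of strength 22.3, in a 3′ UTR 252 kb downstream of the nearest start. Without Foxp2 the forkhead genes had 0.698 Meis1 peaks and 0.830 Hoxb13 peaks per 100 kb, and the median strength of their Meis1 peaks was 22.7.

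Foxo6 held the strongest Meis1 peaks of the family. A group of 3 lay 18.1 to 23.8 kb beyond the 3′ end of the gene, with no other protein-coding gene body within 75.6 kb. The first, at chr4:120248830-120249025, had strength 168 and rank 314. The second, at chr4:120247476-120247678, had strength 140 and rank 471, and the other, at chr4:120242982-120243265, strength 68.5 and rank 1548. A further peak 3.29 kb upstream of the start had strength 44.0 and rank 3028. All 4 were in the strongest 10% of Meis1 peaks, a number reached by 38 protein-coding genes (0.174%). The second overlapped a Hoxb13 peak over its whole 203 bases, with summits 47 bases apart, although that Hoxb13 peak had only strength 20.7 (rank 12601). Beside its promoter peak Foxo6 also had Hoxb13 peaks in intron 1 (strength 18.7) and 4.02 kb upstream (strength 20.8).

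Foxp1, which restrains or promotes cardiomyocyte division depending on the cell in which it acts, had 6 Meis1 and 7 Hoxb13 peaks. At least 7 Hoxb13 peaks were assigned to 308 protein-coding genes (1.41%). The Foxp1 locus spanned 938 kb, so it had 0.746 Hoxb13 peaks per 100 kb, against 0.718 for all genes. Its Meis1 density was 0.639 per 100 kb, against 0.900. The main Meis1 peak, at chr6:99095627-99095774 in intron 1 of 15 of one transcript, had strength 124 and rank 602. It shared 134 bases with a Hoxb13 peak of strength 19.8 at chr6:99095641-99096036, with summits 153 bases apart. The other Meis1 peaks had strengths of 16.8 to 31.5, and the 7 Hoxb13 peaks had strengths of 18.8 to 21.7, with 6 of them in the weaker 50% of the list. The promoter-class peaks of Hoxb13 were at an internal start, 494 and 495 kb inside the outermost start of the gene. A further Hoxb13 peak, at chr6:99522507-99522902 with strength 18.9, overlapped the end of the gene body at the outermost start, with its summit 0.04 kb from it, and is classed as intergenic by the authors. Foxp4 had a single Meis1 peak, in intron 2 (strength 26.8), and 4 Hoxb13 peaks, of which 2 lay 49.5 and 51.7 kb upstream (strength 24.6 and 23.3).

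**Figure D3:**
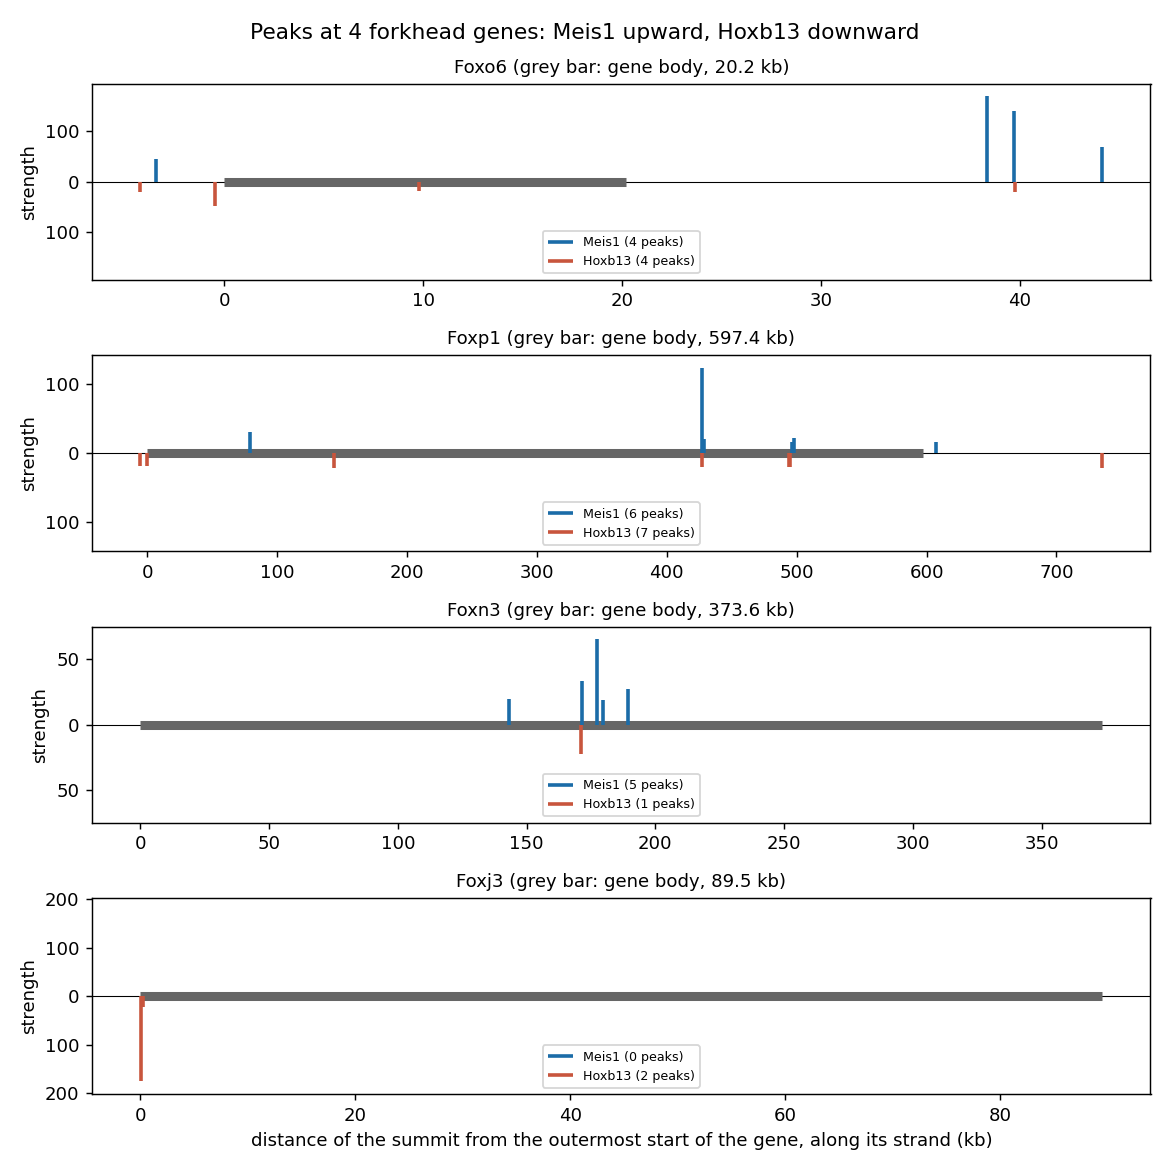
Peaks along Foxo6, Foxp1, Foxn3 and Foxj3 by the distance in kb of the summit from the outermost start of the gene, with Meis1 strength drawn upward, Hoxb13 strength drawn downward (each in the units of its own list, not comparable between lists) and the gene body in grey. Meis1 peaks of strength 168 and 140 stand beyond the end of Foxo6 and one of 124 inside Foxp1, and the tallest Hoxb13 peak, of strength 176, is on the start of Foxj3.

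The factors shared 3 sites at forkhead genes by an overlap of at least 1 base. They were the sites described at Foxo6 and Foxp1 and another in intron 1 of Foxk1, a regulator of muscle progenitors. At Foxk1 a Meis1 peak at chr5:142425123-142425406 (strength 16.0, rank 26926) and a Hoxb13 peak at chr5:142425009-142425404 (strength 24.3, rank 7569) shared 282 bases, with summits 58 apart. Overlapping peaks were 3 of 52 Meis1 peaks (5.77%), against 5.54% of the whole list, and 3 of 45 Hoxb13 peaks (6.67%), against 7.93%. Both shares were near the background. None of the 3 sites was in a promoter, and at each of them 1 of the peaks was in the weaker 50% of its list. Foxe1, the thyroid regulator, had the next closest pair after Foxn3. Its Meis1 peak at chr4:46304183-46304302 (strength 77.2, rank 1294) and its Hoxb13 peak at chr4:46304827-46305222 (strength 23.5) were 524 bases apart. A further Meis1 peak, of strength 55.0, lay 36.6 kb upstream of Foxe1. In the RefSeq table both Meis1 peaks and the Hoxb13 peak fall within the predicted gene Gm12447, while the authors' annotation calls them intergenic.

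The mesenchymal and vascular members Foxc1, Foxc2, Foxf1, Foxf2, Foxl1 and Foxs1 were counted together with Foxq1, an epithelial regulator. These 7 genes had 7 Meis1 peaks at 4 of them and 5 Hoxb13 peaks at 5 of them. Of all protein-coding genes 38.2% had a Meis1 peak and 44.4% a Hoxb13 peak. Foxc1, needed for outflow tract and vessel formation, had 4 Meis1 peaks of strength 30.7, 18.9, 48.1 and 22.5, at 14.5, 67.8, 70.7 and 154 kb downstream of its start. All of them, and its Hoxb13 peak of strength 19.5, lay in introns of Gmds, the neighbouring gene for a mannose dehydratase. Foxc2, its partner in lymphatic and aortic arch development, had a Meis1 peak of strength 20.2 at 2.45 kb upstream, in addition to its Hoxb13 promoter peak of strength 22.4. Foxf2 had a peak of each factor 37.5 and 33.7 kb downstream (strength 16.5 for Meis1 and 19.1 for Hoxb13). Foxf1 had a Hoxb13 peak of strength 18.0 at 5.48 kb. Foxl1, a gut mesenchyme gene beside Foxc2 and Foxf1, had one of strength 39.5 and rank 1697 at 73.5 kb downstream.

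The remaining members with peaks included the endoderm pioneer factor Foxa2, with 3 Meis1 peaks (strength 16.4, 29.9 and 66.2) and 3 Hoxb13 peaks (22.4, 18.2 and 33.8). All of these were 66.3 to 142 kb from its start, and the closest pair of summits was 17.6 kb apart. Foxa1 had no Meis1 peak and 2 Hoxb13 peaks (18.8 and 18.1), one of them in an intron of Mipol1. Foxj2 had overlapping Hoxb13 peaks of strength 20.0 and 36.1 8.95 and 8.70 kb upstream, at 8.47 and 8.72 kb from the body of Slc2a3, together with a Meis1 peak of strength 15.9 inside the body of Slc2a3, a glucose transporter gene. Foxk1 had 2 further Meis1 peaks (17.2 and 17.3) and a Hoxb13 peak of strength 25.3. Foxd3, a neural crest regulator, had 3 Meis1 peaks (16.0, 16.9 and 16.3) and a Hoxb13 peak (19.0) between 29.5 and 214 kb away. Foxn4, a retinal regulator, had 2 Hoxb13 peaks (24.4 and 18.0) at the 3′ side of the gene, the first within Acacb. Foxb2 and Foxi2 had a peak of each factor, with strengths of 23.1 for Meis1 and 19.0 for Hoxb13 at Foxb2, and 16.2 and 18.4 at Foxi2. Foxe3 had a further Hoxb13 peak of strength 28.3 at 12.7 kb upstream. For 8 of 52 Meis1 peaks and 8 of 45 Hoxb13 peaks the body of another protein-coding gene was nearer than that of the assigned forkhead gene. The matching shares over the whole lists were not computed.

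By strength, 10 of 52 Meis1 peaks (19.2%) were in the strongest 10% of the list, namely 4 of Foxo6, 2 of Foxe1 and 1 each of Foxa2, Foxc1, Foxn3 and Foxp1. Of 45 Hoxb13 peaks 4 (8.89%) were in the strongest 10%, those of Foxj3, Foxo6, Foxd1 and Foxl1. By construction the share of a whole list is 10%. The peaks nearest that limit were a Meis1 peak of Foxo6 at 9.92% of the ranks and a Hoxb13 peak of Foxj2 at 10.2%. The median strength of forkhead peaks was 18.9 for Meis1, against 18.7 for the list, and 21.0 for Hoxb13, against 21.4.

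**Figure D4:**
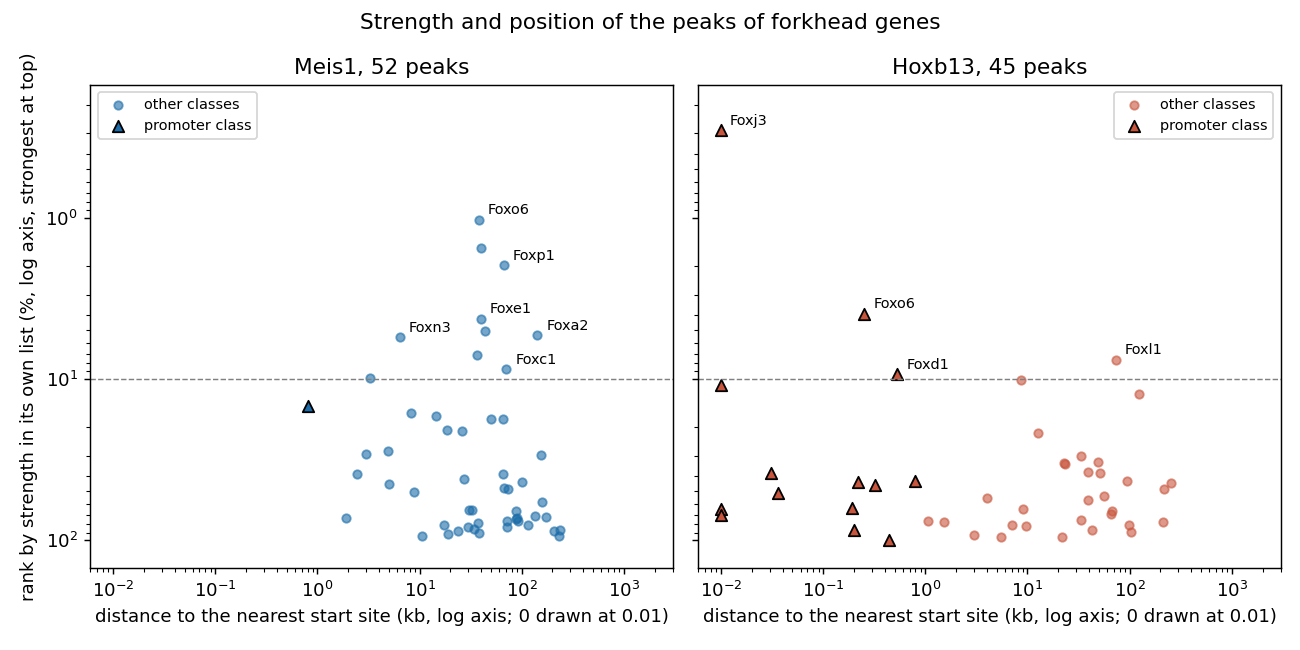
Rank by strength, in percent of the own list on a log axis with the strongest at the top, against distance to the nearest start site in kb on a log axis, for the 52 Meis1 and 45 Hoxb13 peaks of forkhead genes, with triangles for the promoter class and a dashed line at 10% (a distance of 0 is drawn at the left edge). The 10 Meis1 peaks above the line lie 3.29 to 142 kb from a start, and 3 of the 4 Hoxb13 peaks above it are in promoters.

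The median distance of forkhead peaks to a start site was 38.9 kb for Meis1, against 58.2 kb for the list, and 9.60 kb for Hoxb13, against 4.55 kb. For Meis1 the order depended on strength. In the stronger 50% of the list the median was 38.2 kb for forkhead peaks, against 35.9 kb for all, and in the strongest 10% it was 39.7 kb, against 24.8 kb. The median of 39.7 kb is over only 10 peaks, of which 4 were of Foxo6 and 2 of Foxe1. Of the Meis1 peaks 30 of 52 (57.7%) were in introns, against 33.4% of the list, 21 (40.4%) intergenic, against 54.9%, and 1 (1.92%) in a promoter, against 6.73%. Foxp2 alone held 14 of the 30 intronic peaks. Of the Hoxb13 peaks 20 of 45 (44.4%) were intergenic, against 25.3% of the list, 14 (31.1%) in promoters, against 40.3%, and 6 (13.3%) in introns, against 23.4%. Peaks of 1 gene share a locus and are not independent, so these shares were not tested.

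**Figure D5:**
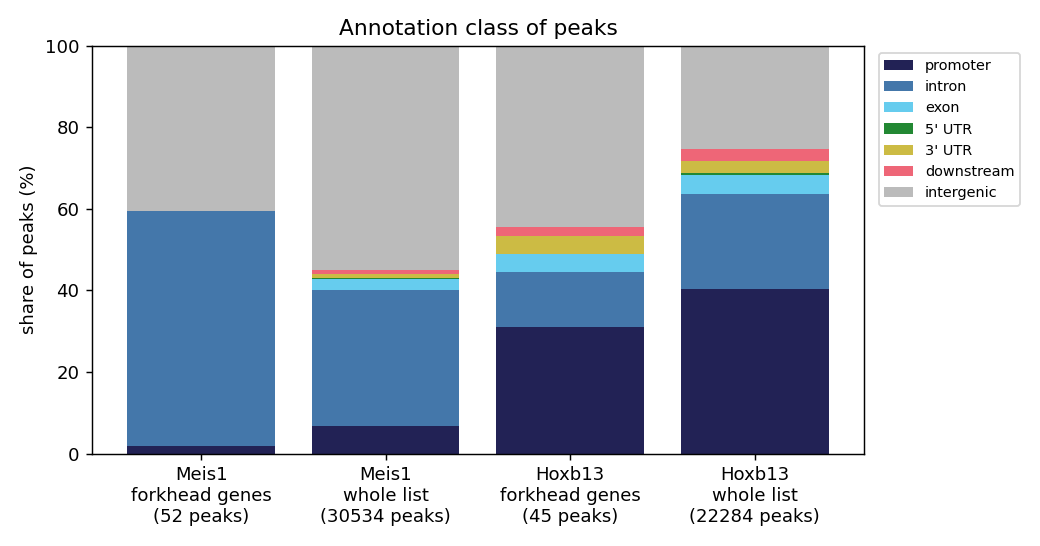
Stacked bars of the share of peaks in percent by annotation class, for forkhead genes and the whole list of each factor. Introns hold 57.7% of the Meis1 peaks of forkhead genes, against 33.4% of the list, and intergenic peaks make up 44.4% of the Hoxb13 peaks of forkhead genes, against 25.3% of the list.

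Genes known to act with forkhead proteins were looked up in the same lists. Of 32 such genes 24 had a Meis1 peak (75.0%, against 38.2% of all genes) and 20 a Hoxb13 peak (62.5%, against 44.4%), and 5 had a shared site. The list was chosen with earlier results of these data known and its shares were not tested. These shares and the counts per gene take no account of the width of the loci. No share over all genes is given for the shared sites. Among the Smads, through which Foxh1 acts, Smad3 had a Meis1 peak of strength 127 and a shared site. The best Meis1 peaks of Smad4 and Smad2 had strengths of 43.5 and 15.6. Of the 6 Foxp partners 4 had peaks of both factors. Gatad2a, of the NuRD complex, had 3 Meis1 and 5 Hoxb13 peaks with the best Hoxb13 strength at 62.7, and Nkx2-5, the cardiac homeobox gene, had 5 and 2. Of 10 vascular targets of Foxc and Foxf proteins 8 had a Meis1 peak and 7 a Hoxb13 peak. Among these, Hey1, a Notch effector, had a Meis1 peak of strength 131, Kdr, the main VEGF receptor, 3 Meis1 and 16 Hoxb13 peaks, and Dll4, a Notch ligand, a Meis1 promoter peak of strength 44.3. Apart from Hey1, the best Meis1 strength of the vascular targets with a peak ran from 16.4 at Cxcr4 to 59.3 at Tek. Of 4 ciliary targets of Foxj1 all had Meis1 peaks and 2 had Hoxb13 peaks, with 27 Meis1 peaks at Dnah5, a ciliary dynein. Hedgehog genes had 3 of 5 for each factor, and Foxk partners 2 of 4 for each.

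Of the 3 forkhead genes that the rule leaves out, Foxo1 had 1 Meis1 and 6 Hoxb13 peaks, Foxo3 had 4 of each, and Foxm1, the mitotic forkhead gene, had 0 of each.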

How the data were processed

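Ventricle chromatin of CD-1 mice was immunoprecipitated with a Meis1 or a Hoxb13 antibody and sequenced. The submitters' processing notes name the build mm10 and, among tools, deepTools 1.6, ChIPseeker, Bowtie2 2.2.3 and Picard. Which program called peaks, at which threshold, and how 3 libraries became 1 list is not given in the sources used here. Numeric columns taken as signal (strength) and score of a peak are deposited values of the authors without descriptive headers; only the signal was used, within a list. No depth per library is known, and no interval is given for the shares. Groups came from the sample titles, and inputs entered no comparison. Of the genes that met the rule, 1 is not reported here and enters no forkhead count. Members and lists were chosen with earlier results of these data known.

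Ranks, overlaps (at least 1 bp), summit distances, locus sizes and motif matches were computed with Python 3.11.15, pandas 2.3.3, NumPy 2.4.6, SciPy 1.17.1 and matplotlib 3.10.9, and the overlap and locus steps were checked on simulated intervals. Entrez numbers were matched to a RefSeq table (GRCm38.p6; 9830 of 9840 Meis1 genes and 10969 of 10981 Hoxb13 genes), without mitochondrial genes. Width of a locus follows the definition in the results. The genes named are members with a promoter peak, a shared site, a peak in the strongest 10% or at least 5 peaks, the 3 with most peaks and the 3 with most per 100 kb, those with no peak, and the 3 left out; other members were named as the family is small. The planned motif search in peaks was not run because no genome was used here; promoter windows were searched instead, a choice made after seeing the data. Alternatives were the stronger 50% and strongest 10% of each list, distance limits, stricter overlaps and other membership.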

Additional observations from a re-analysis of the deposited data

How the results depend on the processing

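No paired analysis was possible because each list covers 3 libraries with no value per library, and for the same reason no library could be left out. The motif search in windows of 100 bp around summits was not run. Counts fell by construction when fewer peaks were kept. In the strongest 10% of each list 6 forkhead genes had a Meis1 peak and 4 a Hoxb13 peak (all genes 9.05% and 8.32%), 0 and 3 had a promoter peak (all genes 1.44% and 6.58%), and 10 Meis1 and 4 Hoxb13 peaks were left. Of those peaks 0% for Meis1 and 75% for Hoxb13 were in promoters (lists 11.4% and 71.5%), and the Hoxb13 median distance was 0.393 kb (list 0.058 kb). In the stronger 50% the forkhead peaks numbered 27 for Meis1 and 21 for Hoxb13. There 15 genes had a Hoxb13 peak (all genes 29.7%), 6 had a Hoxb13 promoter peak (all genes 23.1%), and the Hoxb13 median distance was 22.6 kb (list 0.346 kb). With both lists limited to either share, 0 overlaps were left for either factor. Within 10 kb of a start site there were 10 Meis1 peaks at 6 genes (all genes 19.5%) and 23 Hoxb13 peaks at 15 genes (35.8%). Without Foxp2 (most Meis1 peaks) 37 Meis1 peaks and 3 overlaps were left, and without Foxp1 (most Hoxb13 peaks) 38 Hoxb13 peaks and 2 overlaps. Without Foxp2 the Meis1 peaks in the weaker 50% numbered 13, against 25 with it, and those over 100 kb from a start 5, against 10. Summits within 100 bp and a reciprocal overlap of 50% each left 2 shared sites. Adding Foxm1, Foxo1 and Foxo3 moved none of the counts of genes, promoter genes, peaks and overlaps by over 1.5 times.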
